A study of Mus musculus with 2 samples.

Results

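The nuclei described here are those of striatal spiny projection neurons, the GABAergic output cells of the striatum, in single-nucleus chromatin accessibility data (scATAC-seq) of the mouse brain after stroke. They were chosen by the readout itself: a nucleus was a member if its fragments over 10 marker loci (Drd1, Drd2, Adora2a, Rgs9, Six3, Syndig1l, Ankk1, Tac1, Penk and Ppp1r1b) exceeded the number expected from its depth by a score of at least 3, with at least 5 such fragments. By this rule 710 of 10329 nuclei were members, 498 of 5949 in the sham library and 212 of 4380 in the stroke library. The score is the excess of marker fragments divided by the square root of the number expected from the pooled rate of both libraries. A sham nucleus just inside the cut, for example, had 8 marker fragments where 2.89 were expected.

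The samples came from wild-type (WT) C57BL/6J male mice of 8 to 12 weeks. The sham library was made from 4 pooled brains after sham surgery, and the stroke library from 4 pooled ipsilateral hemispheres, taken 48 h after MCAO/R, an occlusion of the middle cerebral artery for 1 h followed by reperfusion. Olfactory bulbs and cerebellum had been removed, per the study's methods. With 1 library per condition no difference between conditions could be tested, and condition, dissected region and library cannot be told apart. The mice were pooled, so no value belongs to a single animal. The intervals given are exact 95% intervals that cover counting error only.

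Open chromatin was cut by Tn5 transposase, and the fragments were assigned to nuclei by barcode. Over all barcodes, called or not, the sham library held 76959104 fragments and the stroke library 96465679. Called barcodes numbered 6979 in sham and 8740 in stroke. Of these, nuclei with 1000 to 100000 fragments in peaks and over 20% of fragments in peaks were kept. The libraries shared 34 kept barcode sequences, of which 5 were sham members and none was a member in both. Doublets were not called or removed here, and the study's methods name no removal for these libraries.

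Spiny projection neurons make up most of the neurons of the striatum and integrate cortical glutamate and midbrain dopamine. Those of the direct pathway carry the D1 dopamine receptor (Drd1) and make substance P (Tac1) and dynorphin (Pdyn), while those of the indirect pathway carry the D2 receptor (Drd2) and the adenosine receptor encoded by Adora2a and make enkephalin (Penk). Both receptor types act through cyclic AMP, and the cells are known for their high content of cyclic AMP signalling proteins such as adenylyl cyclase 5 (Adcy5), phosphodiesterase 10A (Pde10a) and DARPP-32 (Ppp1r1b). The striatum lies in the territory of the middle cerebral artery.

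Spiny projection neuron nuclei made up 8.37% of sham nuclei (7.68% to 9.10%) and 4.84% of stroke nuclei (4.22% to 5.52%), a ratio of stroke over sham of 0.578 (0.490 to 0.680). The filters had kept 85.2% of the called barcodes in sham but 50.1% in stroke. Without a minimum share of fragments in peaks the shares were 8.65% and 4.08% (ratio 0.472), and among all called barcodes 7.75% and 2.85% (ratio 0.368), both settings added after the data were seen. With every nucleus thinned to 5000 fragments, which left out 731 sham and 542 stroke nuclei with fewer (16 and 1 of them members), the shares were 4.47% (3.92% to 5.06%) and 2.24% (1.80% to 2.76%). By gates built in the same way from other marker lists, the share of cortical excitatory nuclei was 7.95% in sham and 5.07% in stroke, a ratio of 0.637 (0.541 to 0.749), and that of Lhx6 lineage interneurons was 5.23% and 7.31%, a ratio of 1.40 (1.19 to 1.64). The share of spiny projection neuron nuclei was thus lower in the stroke library in each of these settings, as was that of cortical excitatory nuclei with the filters, while that of Lhx6 lineage interneurons was higher. Sham brains and stroke hemispheres, both without olfactory bulbs and cerebellum, need not hold the same share of striatum, and a share also moves with the number of other cells, such as astrocytes, which were 6.67% in sham and 11.7% in stroke.

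Member nuclei had a median of 13655 fragments in sham and 13333 in stroke, against 11307 and 11079 in the other nuclei. Fragments in peaks were a median of 38.2% in sham members and 31.7% in stroke members, and 39.5% and 33.9% in the other nuclei of the same libraries. Stroke nuclei thus had a smaller part of their fragments in peaks, in members and other nuclei alike. At the cut, sham members just inside had scores of 3.005 to 3.008 with 8 to 11 marker fragments, and nuclei just outside had scores of 2.995 to 2.998 with 5 to 8. In stroke the scores were 3.005 to 3.014 inside and 2.972 to 2.987 outside, so the cut fell in a continuous range of scores. Members with a score under 4 were 30.1% of the sham members and 39.2% of the stroke members.

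The markers were not alike in their part of the gate, and since they chose the members their values are a description. Activity here is the number of fragments over a gene's body and the 2 kb upstream of it, scaled to all fragments of the group (CPM). Rgs9, a regulator of G protein signalling rich in striatum (chr11:109225355-109298129), gave 41.2% of the marker fragments of sham members and 36.7% of those of stroke members. Its activity was 369 CPM in sham members and 53.1 CPM in other sham nuclei, and 316 and 52.7 CPM in stroke. Drd2 (chr9:49340627-49408177) stood at 119 CPM in sham members and 179 CPM in stroke members, against 15.5 and 19.1 CPM in the other nuclei. Drd1 and Tac1 were low even in members, with 24.4 and 17.9 CPM in sham and 19.4 and 16.7 CPM in stroke. A Drd1 fragment was found in 22.9% of sham members and a Drd2 fragment in 53.4%.

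The median member had fragments at 4 of the marker loci in each library, and 81.3% of sham members and 82.5% of stroke members had them at 3 or more. At the other end, 36 sham and 11 stroke members rested on a single locus. In 4 stroke members Drd2 alone had 21, 26, 30 and 31 fragments, while the highest count in a sham member was 19. The nucleus with 30 had fragments at 7 marker loci, the one with 21 had Drd2 only, the one with 31 had 1 Rgs9 fragment beside it, and the one with 26 had 11 fragments at Ankk1, the neighbouring kinase gene, and at no other marker. Together they held 108 of the 525 Drd2 fragments of stroke members. Drd2 activity of stroke over sham members was 1.5 (1.34 to 1.67) with them and 1.21 (1.07 to 1.36) without them. The DARPP-32 gene Ppp1r1b went the other way, from 115 CPM in sham members to 77.7 CPM in stroke members (0.674, 0.579 to 0.781). Six3, a striatal transcription factor, was level at 57.0 and 57.3 CPM.

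**Figure D1:**
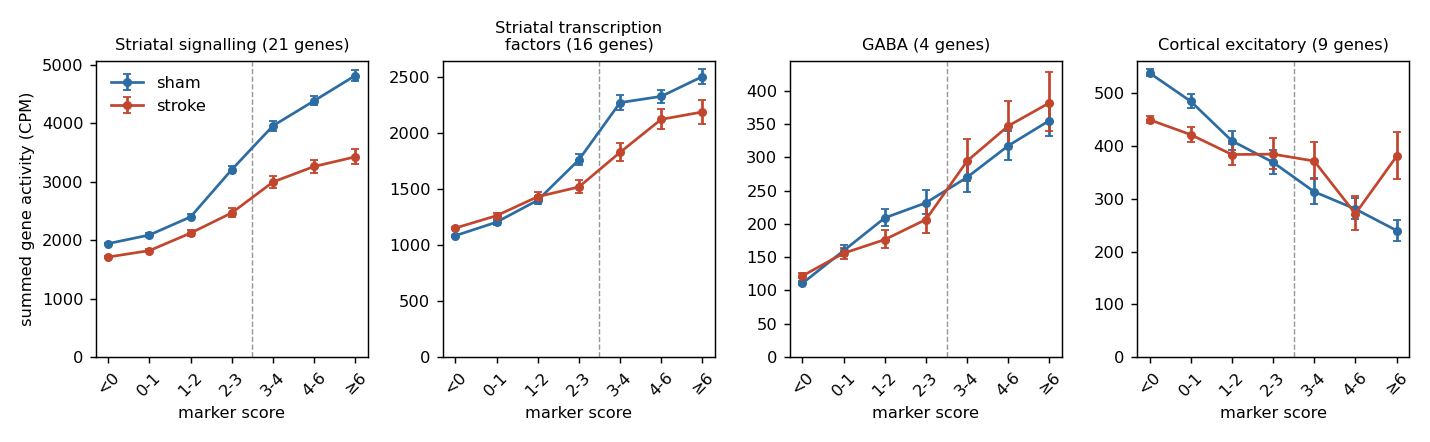
Summed activity (CPM, vertical axes) of genes that the gate did not use, in nuclei grouped by marker score (horizontal axes), for the sham (blue) and stroke (red) libraries. Bars are exact 95% Poisson intervals, and members lie right of the dashed line. Striatal signalling genes went from 1941 CPM below a score of 0 to 4821 CPM at 6 and over in sham, and from 1711 to 3428 CPM in stroke, while cortical excitatory genes went down in sham from 539 to 240 CPM.

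Striatal genes outside the marker loci were more active in the members, and their activity followed the marker score (the plot of summed activity by score). Genes of striatal signalling, a list of 21 with Pde10a, Adcy5 and the olfactory-type G protein Gnal, summed to 1941 CPM in sham nuclei with a score below 0, 3959 CPM at scores of 3 to 4 and 4821 CPM at 6 and over. In stroke the same bands held 1711, 2996 and 3428 CPM. Striatal signalling activity was therefore graded in both libraries, and at each band of members it was lower in stroke than in sham, with intervals that did not overlap. The 4 genes of the GABA list went from 111 to 355 CPM in sham and from 122 to 382 CPM in stroke. Cortical excitatory genes fell along the score in sham, from 539 to 240 CPM, but in stroke they stood at 272 CPM for scores of 4 to 6 and 381 CPM at 6 and over.

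Markers of most other classes summed to lower levels in members than in other nuclei. The exceptions were Prox1 Adarb2 interneuron and cholinergic markers in both libraries and oligodendrocyte markers in sham. Cortical excitatory markers summed to 277 CPM in sham members and 514 CPM in other sham nuclei, and to 339 and 438 CPM in stroke. Astrocyte markers summed to 171 CPM in sham members and 249 CPM in stroke members, against 330 and 406 CPM in the other nuclei. Vascular markers stood at 168 and 236 CPM in sham and stroke members, against 232 and 248 CPM in other nuclei, and myeloid markers at 279 and 340 CPM against 323 and 368 CPM. Oligodendrocyte markers stood at 259 CPM (248 to 272) in sham members and 243 CPM in stroke members, against 235 and 251 CPM. Prox1 Adarb2 interneuron markers stood at 350 CPM (336 to 364) and 335 CPM, against 307 and 321 CPM. Cholinergic markers stood at 37.5 CPM (33.1 to 42.3) and 38.5 CPM (31.7 to 46.3), against 33.0 and 34.0 CPM. Lhx6 lineage interneuron markers stood at 81.9 CPM (75.3 to 88.9) in sham members and 134 CPM (121 to 148) in stroke members, against 145 and 182 CPM. Cortical excitatory, Lhx6 lineage, astrocyte, vascular and myeloid sums were higher in stroke members than in sham members, with intervals that did not overlap, and no listed marker was at 0 in either library. Past 1.5-fold higher in stroke members were 3 of 7 tested cortical excitatory markers (among them Rorb and Tbr1, with Neurod2 lower at 0.626), 3 of 7 astrocyte markers (Slc1a2, Slc1a3 and Slc39a12), 3 of 8 vascular markers (Pecam1, Pdgfrb and Kdr), 1 of 4 Lhx6 lineage markers (Sox6), 2 of 5 Prox1 Adarb2 interneuron markers (Prox1 and Nr2f2), 1 of 5 oligodendrocyte markers, 1 of 2 cholinergic markers and 0 of 5 myeloid markers. Over all tested genes 4.58% were past this size. In addition, 28.7% of sham members and 37.3% of stroke members also passed the gate of another class. Their part in the comparison between conditions is given below as values without these nuclei.

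Compared with the other nuclei of the same library, 60 of 15350 genes outside the marker loci were at least 2-fold more active in members in both libraries (0.391% of those tested), and 103 were at least 2-fold less active in both (0.671%). Genes were tested if at least 20 fragments were expected in the members of each library. Of the 163 genes at 2-fold in sham, 36.8% were so in stroke, and of the 101 in stroke, 59.4% were so in sham. The 10 genes with the largest interval-bounded ratio were Gad2, Kcnj1, Cacng1, Slc32a1, Upb1, Phactr1, Scn11a, Gad1, Cpne5 and Pde10a.

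**Figure D2:**
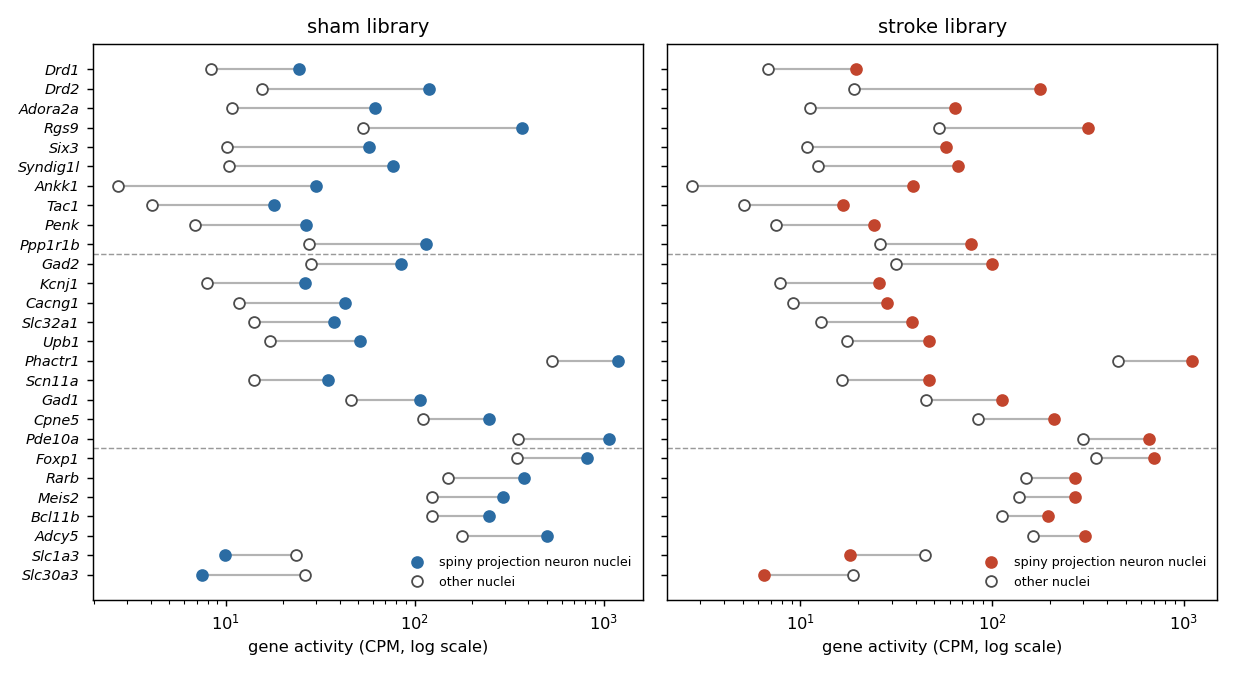
Gene activity (CPM, log scale) in spiny projection neuron nuclei (filled) and other nuclei (open) of the sham library (left) and the stroke library (right). Rows above the first dashed line are the markers that chose the nuclei, rows between the lines are the 10 leading genes outside them, and rows below are further listed genes. All but Slc1a3 and Slc30a3 lie higher in members in both libraries, with Gad2 at 85.1 against 28.1 CPM in sham.

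The genes of GABA transmission led. Gad2, which makes GABA from glutamate, stood at 85.1 CPM in sham members and 28.1 CPM in other sham nuclei (3.03-fold), and at 100.2 and 31.6 CPM in stroke (3.18-fold). Gad1, the second such enzyme, was 2.32-fold higher in sham and 2.49-fold in stroke, and Slc32a1, which loads GABA into vesicles, 2.66-fold and 2.99-fold. Of the 4 GABA genes 3 were past 2-fold in both libraries, against 0.391% of all tested genes. The median ratio of the 4 genes was 2.49 in sham and 2.74 in stroke.

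Of the 21 striatal signalling genes 4 were past 2-fold in both libraries and 19 were above 1 in both. Of all tested genes 0.391% were past 2-fold in both, and the median ratio of all tested genes was 0.988 in sham and 0.996 in stroke. Pde10a, which breaks down cyclic AMP and cyclic GMP, reached 1071 CPM in sham members against 350 CPM in other nuclei (3.06-fold) and 658 against 299 CPM in stroke (2.20-fold). Pde7b, Gnal and Rasd2, a small GTPase of striatum, were the other three, with ratios of 2.60, 2.39 and 2.72 in sham and 2.11, 2.23 and 2.28 in stroke. Adcy5, the main adenylyl cyclase of these cells, was 2.83-fold higher in sham but 1.87-fold in stroke. Scn4b, a sodium channel subunit, was likewise 2.79-fold and 1.98-fold higher. The median ratio of the list over other nuclei was 1.90 in sham and 1.76 in stroke.

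Of 16 striatal transcription factors 2 were past 2-fold in both libraries, Foxp1 with 2.34-fold and 2.01-fold and Dlx6 with 2.75-fold and 2.49-fold, and 12 were above 1 in both. All tested genes had 0.391% past 2-fold in both and a median ratio of 0.988 in sham and 0.996 in stroke. Foxp1, a forkhead factor of the striatum, stood at 818 CPM in sham members and 699 CPM in stroke members, against 349 and 347 CPM in other nuclei. Rarb, a retinoic acid receptor gene, was 2.54-fold higher in sham and 1.80-fold in stroke. Meis2, a homeobox factor of the TALE class, was 2.37-fold and 1.96-fold higher, and its relative Meis1 2.35-fold and 1.16-fold. Mef2c, which many neurons use, was below 1 in both at 0.838 and 0.868. Outside these lists Phactr1, a regulator of actin and of protein phosphatase 1, stood at 1194 CPM in sham members and 1112 CPM in stroke members, 2.24-fold and 2.45-fold over the other nuclei. The D3 dopamine receptor gene Drd3, known from the ventral striatum and the islands of Calleja, was 3.01-fold higher in sham and 2.06-fold in stroke, at 42.3 and 36.5 CPM.

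Among the genes less active in members were loci of other cell types. Slc30a3, the zinc transporter of glutamatergic vesicles, stood at 7.43 CPM in sham members and 26.2 CPM in other nuclei (0.284), and at 6.48 and 18.9 CPM in stroke (0.343). Slc1a3, an astrocyte glutamate transporter, had ratios of 0.417 in sham and 0.403 in stroke. Zeb2, a transcription factor gene, and Id2, an inhibitor of basic helix-loop-helix factors, were lower with ratios of 0.331 and 0.439 in sham and 0.430 and 0.3996 in stroke. Syt17, Tspan32, Gcnt4, 7530416G11Rik, Opn1sw and Oc90 completed the 10 with the clearest differences. This set was named by a rule added after the values had been seen.

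Open regions outside the marker loci were then counted as Tn5 cut sites in 200 bp bins. Both ends of a fragment were counted and are not independent, so the intervals of cut-site ratios are too narrow even for counting error. Of 39151 bins with at least 40 cut sites in the members of both libraries together, 2537 (6.48%) were at least 4-fold over other nuclei in each library. Of these, 96.3% lay more than 1 kb from any annotated gene start, against 48.3% of all the open bins, and 22 lay within 100 kb of a marker locus. In called bins distal to gene starts, a bin held 3.45 CPM of cut sites in sham members and 0.464 CPM in other sham nuclei on average, and 2.5 and 0.394 CPM in stroke, which are values that chose the bins. Of the 39151 bins, 4447 were at 4-fold in sham with at least 20 cut sites in sham members. Their median ratio in stroke was 4.46, and 90.6% were past 2-fold there, against 20.3% of all bins with that minimum. The 632 bins chosen likewise in stroke had a median ratio of 5.58 in sham. The minimum of 40 counted members only, so bins entered through the group in which they were high. It counted members of both libraries, so each library had a part in choosing both sets. The share past 4-fold and these ratios are therefore a description. They are no independent test of members against other nuclei, or of either library by the other.

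**Figure D3:**
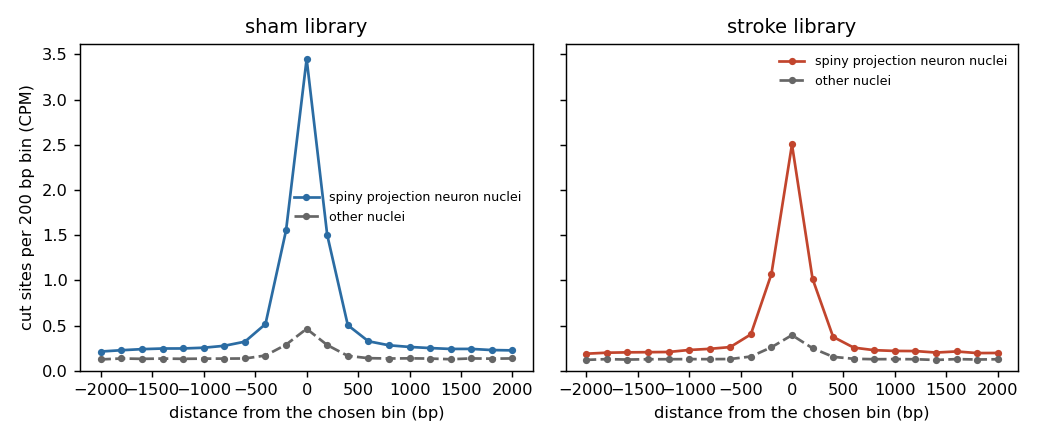
Mean cut sites per 200 bp bin (CPM) by distance from the 2442 chosen distal bins (bp), in spiny projection neuron nuclei (solid) and other nuclei (dashed) of the sham (left) and stroke (right) libraries. At the centre, where the height chose the bins, members reached 3.45 CPM in sham and 2.5 CPM in stroke; at 2000 bp they were at 0.226 and 0.197 CPM.

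The 4 regions below are shown because they are the leading bins that lie in a gene or within 20 kb of a gene start, outside exons and over 100 kb from any marker locus. They are 200 bp stretches of GRCm38 (mm10), plus strand, 5′ to 3′, with the letters of a searched motif in capitals (TGACAG, the MEIS core, or TGANTCA, the AP-1 core, on either strand).
Rfx4 intron, chr10:84821201-84821400: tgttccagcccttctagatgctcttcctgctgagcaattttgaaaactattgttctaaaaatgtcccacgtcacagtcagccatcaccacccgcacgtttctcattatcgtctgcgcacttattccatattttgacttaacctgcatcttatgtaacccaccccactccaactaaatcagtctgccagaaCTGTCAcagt
Gpr6 downstream, chr10:41063601-41063800: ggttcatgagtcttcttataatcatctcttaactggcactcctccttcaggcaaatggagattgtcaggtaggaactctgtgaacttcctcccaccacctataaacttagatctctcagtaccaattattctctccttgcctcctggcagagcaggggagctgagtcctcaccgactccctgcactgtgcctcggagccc
Pde10a intron, chr17:8667201-8667400: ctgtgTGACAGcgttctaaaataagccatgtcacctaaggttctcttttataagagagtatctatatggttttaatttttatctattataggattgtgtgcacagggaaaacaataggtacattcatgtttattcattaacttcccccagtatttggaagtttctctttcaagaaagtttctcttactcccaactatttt
Abcc12 intron, chr8:86544401-86544600: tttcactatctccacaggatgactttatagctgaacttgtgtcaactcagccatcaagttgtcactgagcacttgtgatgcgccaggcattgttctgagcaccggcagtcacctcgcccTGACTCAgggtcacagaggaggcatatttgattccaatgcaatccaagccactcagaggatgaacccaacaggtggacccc

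The Pde10a region lies in an intron of the phosphodiesterase gene and had 51 cut sites in sham members and 14 in stroke members, a ratio over other nuclei of 14.0 (8.89 to 22.3) in sham and 21.1 (8.90 to 51.4) in stroke. The region 8584 bp downstream of the start of Gpr6, an orphan receptor gene of the indirect pathway, had ratios of 15.9 (11.2 to 22.7) and 15.5 (9.02 to 26.6) and held none of the searched motifs. The Rfx4 region had ratios of 16.9 and 16.1, and the Abcc12 region 15.1 and 18.3. The single leading bin of all lay 1224 bp past the end of Drd2, between it and Ankk1, with ratios of 22.6 in sham and 30.6 in stroke. Leading bins were ranked by the lower bounds of such intervals, so these ratios and intervals are values that chose the regions. Pde10a also held the most called bins of any gene, 12 of its 25 open ones.

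Motif letters, which chose no bin, differed between the 2442 called distal bins and the 18918 open distal bins that include them. The MEIS core TGACAG was in 35.2% of called bins (33.3% to 37.1%) and in 21.9% of open bins. It was more frequent at like base composition too: among bins of 45% to 50% G and C, 36.9% of called bins and 25.1% of open bins held it. The homeodomain core TAATTA was in 9.09% of called and 4.58% of open bins, but these differed less at like composition, with 8.80% and 5.99% in that range. Median G and C content was 47.5% in called and 52.0% in open bins. AP-1 letters (TGANTCA) were in 19.7% and 15.3%, and by range of G and C in 22.1% and 22.8% at 40% to 45%, 22.5% and 19.6% at 45% to 50%, and 18.4% and 15.9% at 50% to 55%. Less frequent in called bins were the ETS core CCGGAAG with 0.532% against 2.32%, the cyclic AMP response element TGACGTCA with 0.328% against 0.825%, and the NEUROD-type E-box CAGATGG with 2.42% against 4.86%. The ETS, NEUROD, FOX, RFX and NFI (TTGGCA) letters were also less frequent in called bins within each range from 40% to 55% G and C. The cyclic AMP response element, however, was in 0.909% of called and 0.686% of open bins at 50% to 55%. The MEF2 letters TATTTNTAG were in 2.01% and 2.04%. At like composition they were less frequent in called bins. They were in 3.99% and 4.44% at 40% to 45%, 2.17% and 3.07% at 45% to 50%, and 0.909% and 1.21% at 50% to 55%. Both strands were searched, and letters of different motifs can overlap in a bin. A match is a description of the sequence and not of a bound factor.

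The members were then divided by the score of Drd1 and Tac1 less the score of Drd2, Adora2a and Penk. A difference of at least 2 placed 101 sham and 27 stroke members on the direct pathway side, and one of at most -2 placed 205 and 104 on the indirect pathway side. The remaining 192 and 81 were not assigned, and 47 sham and 18 stroke members lay within 0.5 of a cut. Direct pathway nuclei were 33.0% of those assigned in sham (27.8% to 38.6%) and 20.6% in stroke (14.0% to 28.6%), a ratio of 0.624 (0.392 to 0.963). After thinning to 5000 fragments the shares were 34.5% and 31.9%, a ratio of 0.923. The ratio was 0.708 with cuts at a difference of 1, 0.630 with cuts at 3, and 0.621 in members with fragments at 3 or more marker loci. Direct pathway nuclei had a median of 14565 fragments in sham and 12103 in stroke, and indirect pathway nuclei 13426 and 14034. The cause of the change on thinning was not tested. Since Drd1 and Tac1 held 296 fragments in sham members and the other 3 genes 1449, neither share is the true proportion of the pathways.

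**Figure D4:**
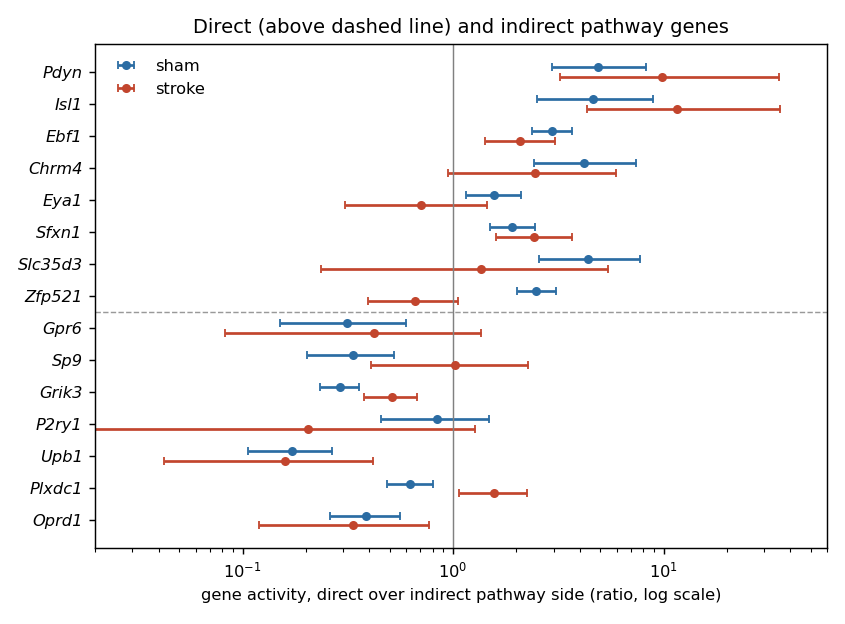
Ratio of gene activity on the direct over the indirect pathway side (log scale) for 8 direct and 7 indirect pathway genes that the division did not use, in sham (blue) and stroke (red), with exact 95% intervals. In sham, the 8 direct pathway genes lie above 1 and the 7 indirect pathway genes below 1; in stroke, with 27 direct pathway nuclei, Eya1, Zfp521, Sp9 and Plxdc1 do not keep their sides.

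Genes that the division did not use separated with it. In sham the 8 listed direct pathway genes were all higher on the direct side, each with an interval above 1, and the 7 listed indirect pathway genes with a gene model were all lower there, 6 with an interval below 1. Over both libraries together 7 of the 8 direct pathway genes were at least 1.5-fold higher on the direct side, a size that 4.68% of all 13276 tested genes reached, and 5 of the 7 indirect pathway genes were at least 1.5-fold lower, where the share of all genes was 5.6%. In stroke 6 of 8 and 5 of 7 lay on the side of their list, 4 of the 8 with an interval above 1 and 3 of the 7 with an interval below 1. The indirect pathway gene Plxdc1 was higher on the direct side there, at 1.56 (1.06 to 2.24).

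Pdyn, the dynorphin precursor, was at 38.5 CPM on the direct side and 7.91 CPM on the indirect side in sham (4.86, 2.95 to 8.28), and at 33.1 and 3.39 CPM in stroke (9.79, 3.21 to 35.5). Isl1, a LIM homeodomain factor of direct pathway neurons, had ratios of 4.62 in sham and 11.6 in stroke, and Ebf1, a factor needed for their development, 2.94 and 2.09. The M4 muscarinic receptor gene Chrm4, which lowers cyclic AMP in direct pathway cells, was 4.19-fold and 2.45-fold higher. Pdyn and Isl1 had the largest interval-bounded ratios of all genes tested, followed by Slc35d3, Cntnap3, Chrm4 and Ebf1. Sfxn1 was 1.91-fold and 2.44-fold higher but lies 16.2 kb from Drd1.

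On the indirect side, Grik3, a kainate receptor gene, stood at 238 CPM against 69.4 CPM on the direct side in sham, a ratio of 0.291, and at 297 against 152 CPM in stroke (0.511). Gpr6 had ratios of 0.314 and 0.422, and Oprd1, the delta opioid receptor gene on which enkephalin acts, 0.386 and 0.335. Sp9, a transcription factor of indirect pathway neurons, was at 0.333 in sham and 1.02 in stroke. Upb1 had the lowest ratio, 0.172 in sham and 0.158 in stroke, and lies 66.3 kb from Adora2a, while Ttc12 and Tmprss5, also among the lowest, lie 9.94 kb from Ankk1 and 223 kb from Drd2. Ptprm and Chrm3, the M3 muscarinic receptor gene, had ratios of 0.371 and 0.349 over both libraries and lie on other chromosomes than the indirect split markers. Striosome and matrix genes showed no common side: of 7 striosome genes 2 had an interval above 1 over both libraries, Pdyn and Sema5b, and 2 had one below 1, and of 6 matrix genes only Epha4 had an interval off 1, below it.

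Between conditions, 681 of 14885 genes were at least 1.5-fold more active in stroke members than in sham members (4.58%) and 700 at least 1.5-fold less active (4.7%). In the other nuclei, with far more fragments, the same genes gave 161 and 14. Of all tested genes 57.5% had a log2 ratio below 0 in members and 68.1% in other nuclei. The median log2 ratio was -0.06 in members and -0.09 in other nuclei. Scaling to fragments in peaks in place of all fragments shifted the median to 0.24 and turned the counts to 2285 higher and 123 lower. Other settings tipped the other way, with 112 higher and 1014 lower in promoters, 436 and 807 after thinning to 5000 fragments, 641 and 1229 at scores of at least 5, and 621 and 1022 without nuclei of a second class, so the balance of higher and lower genes depended on the setting, and lists are given relative to the median of all genes.

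Striatal signalling genes were lower in stroke members. Of the 21, 20 had a log2 ratio below 0 and 7 were past 1.5-fold lower, 33.3% of the list against 4.7% of all genes, with a median of -0.39, or -0.33 relative to all genes. In other nuclei the median of the same genes relative to all genes was -0.11. Pde10a was at 1071 CPM in sham members and 658 CPM in stroke members (0.615, 0.585 to 0.646), and at 0.853 in the other nuclei. Adcy5 went from 503 to 306 CPM (0.607, 0.564 to 0.654), Scn4b from 75.8 to 47.7 CPM (0.630) and Rasgrp2, a Rap1 exchange factor of striatum, from 61.5 to 30.3 CPM (0.494, 0.388 to 0.621). The others past 1.5-fold were Cnr1, the cannabinoid receptor CB1, with 0.591, Pde1b with 0.631 and Actn2 with 0.664. Dclk3, a kinase gene, was the exception above 0, with a ratio of 1.19. Scaled to fragments in peaks the list median was -0.09, still below 0. The relative median of the list was -0.46 at scores of at least 5 and -0.30 without nuclei that passed a second class.

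**Figure D5:**
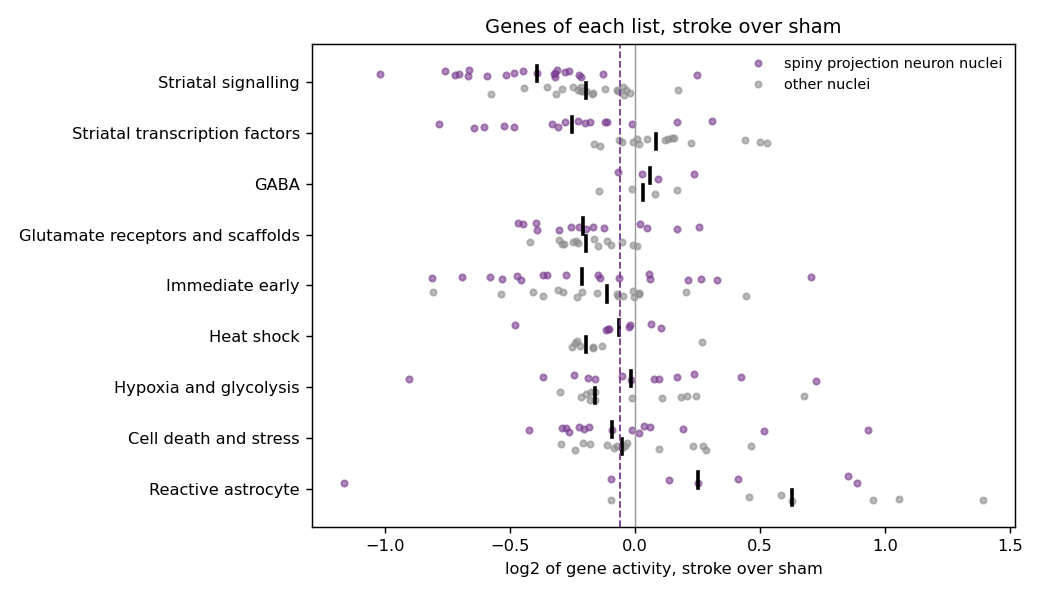
Log2 ratio of gene activity, stroke over sham, for each tested gene (points) of 9 lists in spiny projection neuron nuclei (purple) and other nuclei (grey), with list medians as black bars. The dashed line marks the median of all tested genes in spiny projection neuron nuclei, -0.06. In spiny projection neuron nuclei the striatal signalling median lies at -0.39 and that of the striatal transcription factors at -0.25, which turned to 0.03 when scaled to fragments in peaks.

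Striatal transcription factors showed the same direction. Of 16, 14 had a log2 ratio below 0 and 3 were past 1.5-fold lower: Rxrg, a retinoid receptor gene, with 59.8 and 34.8 CPM (0.582, 0.464 to 0.724), Dlx5 with 0.640 and Sp9 with 0.657. The list median relative to all genes was -0.19 in members and 0.17 in other nuclei. Scaled to fragments in peaks the list median itself was 0.03, so its direction turned with this scaling, while relative to all genes it stayed below 0 at -0.22. Rarb was at 380 CPM in sham and 272 CPM in stroke members (0.715, 0.660 to 0.775) and at 1.01 in other nuclei. Foxp1 had a ratio of 0.854, and Foxp2 was higher in stroke at 1.24 (1.12 to 1.37). GABA genes as a list were not lower: the ratios were 1.18 for Gad2, 1.07 for Gad1 and 1.02 for Slc32a1, with a relative list median of 0.12 in members and in other nuclei alike. Of the 8 direct pathway genes 6 had a log2 ratio below 0, with Pdyn at 0.534 and Slc35d3 at 0.516 past 1.5-fold lower, and of the 7 indirect pathway genes 5 did, with Sp9 past 1.5-fold. Of all tested genes 57.5% were below 0 and 4.7% past 1.5-fold lower. The direct pathway share of stroke members over that of sham members, 0.624 in the main setting and 0.923 after thinning, stands beside these values. Its part in them was not tested.

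Because more stroke members had low scores, these genes were also read within score bands. Pde10a stood at 889 CPM in sham and 531 CPM in stroke members with scores of 3 to 4, at 1089 and 744 CPM for 4 to 6, and at 1208 and 738 CPM at 6 and over. It was lower in stroke in every band. Foxp1 was 838 and 601 CPM, 819 and 661 CPM, and 801 and 904 CPM in the same bands, so its difference was not kept at the highest scores. Cortical excitatory, astrocyte and vascular markers were higher in stroke members, as given above, and their part in these differences was not tested beyond the value without nuclei of a second class.

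Stress genes showed small and mixed differences, read here beside all tested genes, of which 4.58% were past 1.5-fold higher and 4.7% past 1.5-fold lower. Of 18 immediate early genes, which neurons switch on upon activity, 1 was past 1.5-fold higher (Nr4a2, 1.63, 0.970 to 2.70) and 2 past 1.5-fold lower, Npas4 with 0.619 and Egr4 with 0.571. Both were lower in the other nuclei too, at 0.571 and 0.691. Of the 18, 12 had a log2 ratio below 0, against 57.5% of all tested genes. The list median relative to all genes was -0.15 in members and -0.03 in other nuclei. In members it ranged from -0.22 to -0.10 over the alternatives. None of the 8 tested heat shock genes was past 1.5-fold, with Hsp90ab1 lowest at 0.718. Of 13 tested hypoxia and glycolysis genes, Hk2, a hexokinase, was higher at 1.65 (1.18 to 2.30), as in other nuclei at 1.60, and Aldoa lower at 0.534. Of 15 tested cell death genes, Bcl2l11, which encodes the death-promoting protein BIM, was higher at 1.91 (1.32 to 2.75), with 10.0 CPM in sham and 19.1 CPM in stroke members and 1.22 in other nuclei. None of the 14 glutamate receptor and scaffold genes was past 1.5-fold. Of these, 10 had a log2 ratio below 0, with a relative list median of -0.15 in members and -0.11 in other nuclei. In members it ranged from -0.15 to -0.0056 over the alternatives. Of 7 tested reactive astrocyte genes 2 were higher, Cd44 with 1.81 and Bcl3 with 1.85, and Lcn2 was lower at 0.447, and other nuclei had a higher relative list median, 0.71 against 0.31. In members this median was 0.07 over 3 tested genes without nuclei of a second class, and 0.03 over 2 at scores of at least 5. At scores of at least 5 a few of these genes were no longer past 1.5-fold: Bcl2l11 stood at 1.35 (0.683 to 2.56), Cd44 at 1.30 (0.741 to 2.22) and Npas4 at 0.705 (0.460 to 1.05).

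The genes with the largest interval-bounded differences that were higher in stroke were of low activity, at most 12.2 CPM in sham members. Higher in stroke were Frzb, Cers3, Slc22a18, Cyp4f17, Sall3, Fli1, Adgrg2, Frk, 3425401B19Rik and Tm6sf2. Frzb, a secreted Wnt inhibitor, had 26 fragments in 25 sham members and 42 in 28 stroke members (3.72 and 14.3 CPM, ratio 3.85, 2.31 to 6.54). Others drew many fragments from 1 nucleus: of the 42 Cyp4f17 fragments in stroke 20 lay in 1 nucleus, and of the 45 at Sall3 15 did. Of the 95 at Fli1, an endothelial and blood cell factor, 14 lay in 1 nucleus, while 39 stroke members held a Fli1 fragment. Several fragments of 1 nucleus at 1 locus are not independent, so these intervals are too narrow. Frzb and Fli1 stayed near the level of other stroke nuclei, 13.2 and 37.4 CPM, and were below it in sham members.

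Lower in stroke were Calr4, Ldhc, Gpr139, Nrtn, Slc22a3, Abhd12b, Insyn1, Ago4, Krt1 and Flt4. Gpr139, an orphan receptor gene, had 173 fragments in 102 sham members and 26 in 20 stroke members (24.7 and 8.86 CPM, ratio 0.358, 0.228 to 0.543). Insyn1, an inhibitory synapse protein gene, went from 51.7 to 22.8 CPM (0.441, 0.335 to 0.574), and Slc22a3, a transporter of monoamines, from 70.2 to 31.7 CPM (0.452, 0.358 to 0.565). Both were spread over many nuclei, with at most 9 and 14 fragments in a sham member. Nrtn, which encodes the neurotrophic factor neurturin, was at 22.7 and 8.18 CPM (0.360).

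In distal regions, cut sites in stroke relative to sham differed with the motif letters of the region. The open bins above were chosen by cut sites of members, most of which are from sham, so the comparison was made in as many distal bins (18918) chosen by the cut sites of the other nuclei, with both libraries weighted equally, an alternative added after the data were seen. In these the ratio of stroke over sham, as shares of all cut sites, was 0.863 (0.859 to 0.867) in members and 0.863 in other nuclei. Within ranges of G and C content it was higher in members, with 0.884 (0.869 to 0.900) against 0.801 at 40% to 45%, 0.867 (0.857 to 0.876) against 0.827 at 45% to 50% and 0.856 (0.849 to 0.864) against 0.844 at 50% to 55%. In bins chosen by members it was 0.764 in members and 0.858 in other nuclei, so the direction of this difference moved with the choice of bins and their G and C content. The share of fragments in peaks was also lower in stroke nuclei, as given above.

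MEF2 factors are an activity-dependent family in neurons, and AP-1 factors include the products of the Fos and Jun genes. Bins with MEF2 letters had a ratio of 0.735 (0.707 to 0.763) in members against 0.865 for bins without them, and 0.724 against 0.865 in other nuclei. Bins with AP-1 letters had 0.968 (0.956 to 0.980) in members against 0.850, and 0.941 against 0.853 in other nuclei. At 45% to 50% G and C the members' ratio was 0.761 with MEF2 letters and 0.870 without, and 1.02 with AP-1 letters and 0.838 without. Both differences had the same direction at 40% to 45% and at 50% to 55%. Bins with NEUROD E-box letters had 0.927 (0.912 to 0.943) in members against 0.859 without them, but 0.810 against 0.868 in other nuclei. Bins with FOX letters (TGTTTAC) had 0.944 (0.909 to 0.981) against 0.862 in members and 0.880 against 0.863 in other nuclei. The members' ratio was 0.837 for MEIS, 0.843 for POU (ATGCAAAT), 0.826 for homeodomain and 0.900 for EBF (CCCNNGGGA), against 0.868, 0.864, 0.864 and 0.862 without the letters. In other nuclei these had the same directions. In members, however, each direction turned in part of the G and C ranges and was kept in the others. MEIS had 0.902 against 0.881 without the letters at 40% to 45%, and POU 0.891 against 0.866 at 45% to 50%. EBF had 0.790 against 0.868 at 45% to 50%, and homeodomain 0.932 against 0.854 at 50% to 55%. Bins with ETS letters had 0.839 (0.820 to 0.858) in members against 0.864 without them, but 0.910 against 0.861 in other nuclei. At 45% to 50% G and C the members' ratio was 0.967 with ETS letters and 0.866 without. It was 0.858 and 0.856 at 50% to 55%, and 0.637 and 0.887 at 40% to 45%, where 7 bins held the letters. Relative to the remaining distal bins, those with MEF2 letters were thus lower and those with AP-1 letters higher in the stroke library, in members and in other nuclei. Bins with NEUROD E-box letters were higher in members and lower in other nuclei. Those with ETS letters were higher in other nuclei, while in members their direction moved with G and C content. From sham to stroke, cortical excitatory markers went from 277 to 339 CPM in members and from 514 to 438 CPM in other nuclei. Their part in the NEUROD values was not tested.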

How the data were processed

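Nuclei of pooled brains were profiled by scATAC-seq. The authors ran Cell Ranger ATAC 2.1.0 with an mm10 reference and deposited, without normalization, fragments with their read counts and counts of fragments per barcode. From these, kept barcodes were gated on marker fragments, and activity was counted over GENCODE M21 protein-coding genes (body plus 2 kb upstream) of the same build with Python 3.11.15, numpy 2.4.6, scipy 1.17.1 and pandas 2.3.3. CPM is scaled to all fragments of a group. Genes with at least 20 expected fragments were compared. Intervals are exact (Poisson, binomial, or conditional on the sum). A gene near a marker shares its neighbourhood. The members, markers and lists were chosen with earlier results of these data known. Named genes are the markers, the 10 with the largest interval-bounded ratio in each direction, and listed genes. The study's filters on TSS enrichment (over 2) and blacklist fragments were an alternative; the blacklist column held 0 throughout. Counting was checked against a plain overlap count of fragments of the stroke library, and intervals, fold calls and the gate against simulated counts. Tests between conditions were not possible with 1 library each, and no deposited cell annotation was used here. Gpr52 was listed but has no gene model here. Values of some listed genes are not reported here.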

Additional observations from a re-analysis of the deposited data

How the results depend on the processing

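Of 102 values recomputed under alternatives, 75 stayed within their interval, list spread or 1.5 times the count and 27 moved. Relative list medians near 0 changed sign within that spread: heat shock genes, -0.0035, were at 0.018 at a score of at least 5 and 0.031 at 3 or more loci, and cell death genes, -0.031, were at 0.0091 without nuclei of a second class. The ratio of member shares, 0.578, was 0.472 at a score of at least 5, 0.683 with the expected rate taken in each library, 0.472 with no minimum share in peaks, 0.368 over all called barcodes (both added later) and 0.391 with marker promoters, which found 59 sham and 17 stroke members; with each marker left out in turn it ranged from 0.503 to 0.666. With members at 3 or more marker loci, an alternative added after the data were seen, it was 0.587, and at or above the median depth, also added, 0.622. Genes over other nuclei numbered 5 in promoters, 169 with no minimum, 20 with a minimum of 100 and 3 at 3-fold. Genes higher in stroke numbered 2285 scaled to fragments in peaks, 112 in promoters, 2692 with no minimum, 72 with a minimum of 100, 96 at 2-fold and 436 after thinning. Genes lower in stroke numbered 123, 1500, 178 and 87 under scaling, no minimum, minimum of 100 and 2-fold, and 1229 at a score of at least 5. Bins numbered 463 with a minimum of 80 cut sites, 6627 at 2-fold and 1100 at 6-fold. The relative list median of GABA genes was 0.054 at a score of at least 5 and 0.21 without nuclei of a second class, and that of heat shock genes -0.10 without these nuclei and -0.064 in promoters. Over the alternatives the relative medians ranged from -0.46 to -0.26 for striatal signalling and from -0.34 to -0.22 for striatal transcription factors. Fewer calls follow from a higher minimum or fold by construction; the cause of the other changes was not tested. No paired analysis was possible because sham and stroke are 1 pooled library each, and no replicate could be left out.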
